A study of Mus musculus with 2 samples.

Results

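The splice junctions described here are those of a 1 Mb window of mouse chromosome 3, between 92 and 93 Mb of the mm9 assembly, which holds the small proline-rich genes (Sprr) of the epidermal differentiation complex. They were taken from the junction list of a colon RNA-seq series by position: every junction lying wholly inside the window was kept. The list held 2779 of them among 402639 junctions in all, and the window was chosen by its number of junctions, the second highest of any megabase of the list, so that number and the share of A=0 among them are given as a description with no test. Each junction carries a tag A, whose meaning the deposited files do not state: 2769 of the 2779 carried A=0 (of 248551 in all) and 10 carried A=1 (of 154088). The densest megabase, on chromosome 5, held 18563 junctions, and the next after the window, on chromosome 10, held 2490. The first junction inside lay 5374 bases from the left edge and the last 24290 bases from the right edge, while 37 junctions that crossed an edge were left out, none with more than 5 reads.

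The study sequenced poly-A RNA from the colon of C57BL/6J mice 8 weeks old, with littermates of both sexes pooled, no treatment and a single group. There were 2 libraries, labelled biological replicates 1 and 2, made from stranded paired reads of 76 bases on rRNA-depleted RNA longer than 200 bases. Both libraries carry the same donor record, and whole colon mixes epithelium with muscle, vessels and immune cells, so fewer cells of a type and less RNA per cell cannot be told apart. The junction list gives reads of the libraries as R1 and R2, and the files do not say which replicate each is. R1 held 18301894 junction reads and R2 held 19057116.

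Small proline-rich proteins are precursors of the cornified envelope, the cross-linked protein shell under the surface of squamous epithelial cells, where transglutaminases join them. Their genes lie in a row of near copies, each with a short untranslated first exon and a second exon that holds the whole coding sequence. That coding sequence has a head, a tail and, between them, a proline-rich stretch built of tandem repeats. Sprr2a is also known as a gene of the intestinal epithelium that responds to colonising bacteria. A splice junction in such data is a read that jumps from one genomic position to another, and most introns begin with GT and end with AG.

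The coding sequences of the copies on which the junction reads fell are shown because most of the junctions start and end within them. All come from the GENCODE vM21 transcripts (mm10), 5′ to 3′. In Sprr2a1 the capitals mark 54 bases left out by a heavily read exon 2 junction, in Sprr2a3 they mark the 3 bases that differ from Sprr2a1, and in Sprr2b nothing is marked.
Sprr2a1: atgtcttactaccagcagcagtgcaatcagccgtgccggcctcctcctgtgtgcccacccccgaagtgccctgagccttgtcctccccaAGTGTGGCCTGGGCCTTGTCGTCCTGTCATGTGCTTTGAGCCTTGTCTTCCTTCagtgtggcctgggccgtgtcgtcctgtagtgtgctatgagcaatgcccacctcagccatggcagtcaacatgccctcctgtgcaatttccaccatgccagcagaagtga
Sprr2a3: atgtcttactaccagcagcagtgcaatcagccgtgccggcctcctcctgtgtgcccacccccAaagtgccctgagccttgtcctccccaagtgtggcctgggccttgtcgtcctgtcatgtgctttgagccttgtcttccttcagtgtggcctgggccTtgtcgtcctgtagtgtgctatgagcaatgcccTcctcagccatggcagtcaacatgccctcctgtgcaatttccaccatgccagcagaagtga
Sprr2b: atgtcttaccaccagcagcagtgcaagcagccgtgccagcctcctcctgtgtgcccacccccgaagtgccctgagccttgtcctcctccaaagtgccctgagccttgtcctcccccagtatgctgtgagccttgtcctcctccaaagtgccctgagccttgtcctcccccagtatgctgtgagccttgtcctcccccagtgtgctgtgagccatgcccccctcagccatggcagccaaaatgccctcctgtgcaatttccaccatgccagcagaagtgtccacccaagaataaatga

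Sprr2a1 and Sprr2a2 have the same coding sequence: their second exons differ at 2 of 2839 bases, the first of them 1364 bases into the exon. Sprr2a3 differs from Sprr2a1 at 6 of the first 400 bases of that exon. The repeat can be read in the Sprr2a1 coding sequence itself: set against itself shifted by 27 bases it was identical at 49.3% of positions and by 54 bases at 48.5%, against 26.1% at a shift of 26, 29.9% at 28, 24.1% at 53 and 21.3% at 55.

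The joint between the exons is shown because the most read junctions end there. Lower case is the end of exon 1 and capitals are the start of exon 2, with 15 bases of each; the Sprr2a2 and Sprr2a3 joints are letter for letter that of Sprr2a1.
Sprr2a1: gctccggagaacctgATTCTGAGACTCAAG
Sprr2b: gctccggagaacctgATTCTGAGACTCCAG
Sprr2h: actaaggagaacctgAACCTAAGACTTCAG

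The last 28 bases of exon 1 were identical in the 3 Sprr2a copies. Into exon 2, the first base at which Sprr2a3 differed from Sprr2a1 lay at offset 81, counted from 0.

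The reads of the window were held by a few junctions. The 2779 junctions had 317578 reads, 0.850% of the 37359010 junction reads of the list. The 3 most read took 76.6% of the window's reads and the 6 most read took 89.0%. The 10 A=1 junctions had 256874 reads with a median of 239, and the 2769 A=0 junctions had 60704 reads with a median of 2 and an interquartile range of 1 to 5. One read was all that 1088 A=0 junctions had (39.3%, against 57.1% of A=0 junctions in the rest of the list), and 411 had at least 10 (14.8%, against 6.25%). Reads came from both libraries at 784 of them (28.3%, against 14.8% in the rest), from R1 alone at 1173 and from R2 alone at 812. A=0 junctions held 19.1% of the window's reads (exact binomial 95% interval 19.0 to 19.3, counting error only) and 8.87% of those in the rest of the list.

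The 6 most read junctions join exon 1 to exon 2 of the 3 Sprr2a genes in every forward combination. They were named by intron length, strand and distance from the first acceptor, compared with the annotated introns of mm10, without moving a coordinate between builds. The Sprr2a1 intron, chr3:92019885-92022994 on the plus strand, is 3110 bases long and had 81113 reads. The Sprr2a2 intron, chr3:92054697-92057807, is 3111 bases long and had 80976. A junction from the Sprr2a1 exon 1 to the Sprr2a2 exon 2, chr3:92019885-92057807, spans 37923 bases and had 81100. These values lie within 137 reads of each other, and all 3 junctions carry A=1. The long one is an intron of an annotated Sprr2a2 transcript.

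At the Sprr2a3 exon 2 the same pattern stood at a lower level. Its own intron, chr3:92089382-92092490 and 3109 bases long, had 12989 reads and the tag A=0. From the Sprr2a2 exon 1, chr3:92054697-92092490, a junction of 37794 bases had 13186 reads and A=1, although no intron of that length is in the annotation used here. From the Sprr2a1 exon 1, chr3:92019885-92092490, a junction of 72606 bases had 13322 reads and A=0. The read number thus went with the exon 2 listed and hardly with the exon 1. The last 28 bases of exon 1 are identical in the Sprr2a copies. A read that reaches no further into exon 1 fits each of them, so these numbers do not show which exon 1 was used. In exon 2, Sprr2a3 first differs from Sprr2a1 at offset 81, and single reads of these libraries are shorter than that. A read across the joint thus cannot by itself tell the Sprr2a3 exon 2 from that of Sprr2a1.

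**Figure D1:**
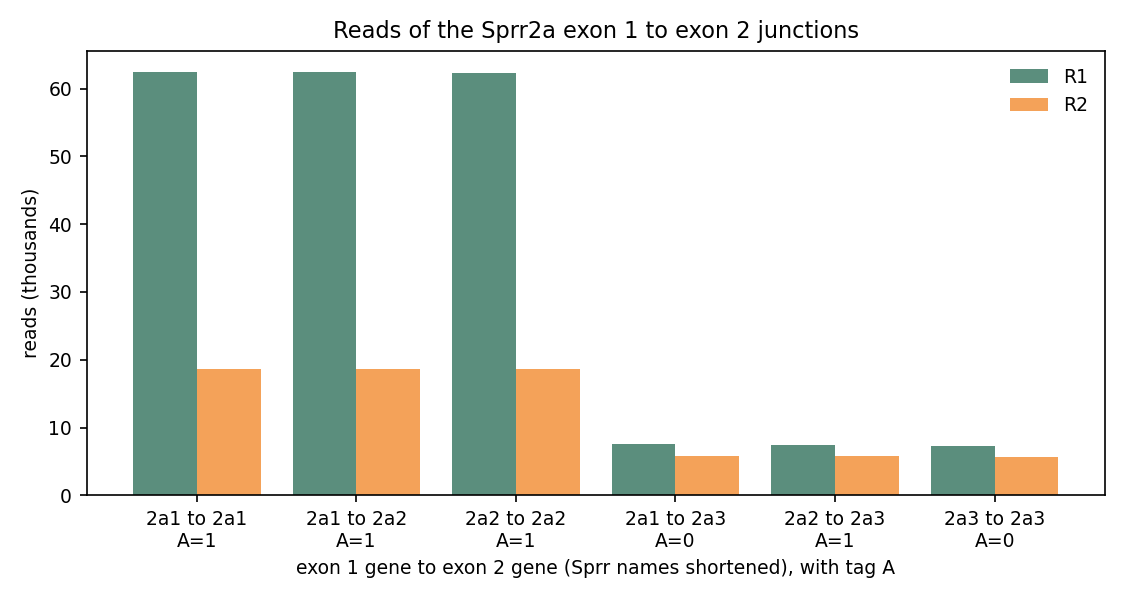
Reads (vertical axis, in units of 1000, linear from 0) of the 6 junctions from a Sprr2a exon 1 to a Sprr2a exon 2, R1 and R2 side by side, 1 value per library. Junctions into Sprr2a1 and Sprr2a2 have R1 bars of about equal height and far above their R2 bars, and those into Sprr2a3 are low with R1 and R2 nearer to each other.

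The libraries divided these junctions in different ways. R1 gave 62460 and R2 18653 of the Sprr2a1 intron's reads, so R1 held 77.0% (exact binomial interval 76.7 to 77.3). For the Sprr2a2 intron the values were 62342 and 18634, and for the junction between them 62451 and 18649, both again 77.0% from R1. The Sprr2a3 intron had 7263 reads in R1 and 5726 in R2, or 55.9% from R1 (55.1 to 56.8). The junctions into Sprr2a3 from Sprr2a1 (7502 and 5820) and from Sprr2a2 (7408 and 5778) had 56.3% and 56.2% from R1. The intervals of the Sprr2a3 junctions do not overlap those of the others. These intervals cover counting error only, and PCR copies of 1 molecule are not told apart. A read across the joint does not by itself tell the Sprr2a3 exon 2 from that of Sprr2a1. How such reads were given to a copy is not stated in the files, and its part in these shares was not tested. On the log2 scale, with libraries scaled to equal size, R1 over R2 was 1.80 for the Sprr2a1 intron and 0.40 for the Sprr2a3 intron.

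The other copies had few exon-joining reads. The Sprr2b exon 2, 98357 bases from that of Sprr2a1, had 9 reads from its own exon 1 (682 bases, A=1), 9 each from those of Sprr2a1 (101467 bases) and Sprr2a2 (66655 bases), and 8 from that of Sprr2a3 (31970 bases). Sprr2h had 3 reads over its intron of 888 bases, all in R2. At the Sprr2d exon 2, 4 junctions of 1 read each came from the exon 1 of Sprr2a1, Sprr2a2, Sprr2a3 and Sprr2b. Sprr1a, a separate small proline-rich gene on the minus strand, had 467 reads over its intron (chr3:92288634-92289771, 1138 bases), 244 in R1 and 223 in R2. The remaining A=1 junctions belonged to Crnn, which encodes the envelope protein cornulin, with 11 reads (10 in R1, 1 in R2) and 8 reads (7 and 1) over 1960 and 1097 bases, and to Smcp, a gene of the sperm mitochondrial capsule, with 1.

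In all, 19 junctions of the window had both ends at annotated exon edges, and they held 283215 reads, 89.2% of the window's. Among them were 9 with A=0, of which 8 joined different genes. With the Sprr2a3 intron these 9 had 26341 reads, 43.4% of the A=0 reads. A further 91 junctions had 1 end at an exon edge, and 2669 (96.0%) had neither.

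The most read junctions other than those at the exon joint lay inside exon 2, and the letters around their ends are shown for the families described next. Positions are offsets counted from 0 at the first base of exon 2. A junction from 105 to 175 leaves out the bases from 105 up to, but not including, 175. For each, the first line has 12 bases on either side of the left end and the second 12 bases on either side of the right end, both from the Sprr2a1 transcript. Capitals mark bases that are identical after both ends, so that the junction could be moved along them without changing the joined sequence.
from 105 to 175, left: gccttgtcctccCCaagtgtggcc
from 105 to 175, right: gtgtggcctgggCCgtgtcgtcct
from 108 to 162, left: ttgtcctccccaAGTGTGGCCTGG
from 108 to 162, right: ttgtcttccttcAGTGTGGCCTGG
from 183 to 63, left: tgggccgtgtcgTCCTGTagtgtg
from 183 to 63, right: gtgccggcctccTCCTGTgtgccc
from 144 to 90, left: tgtcatgtgcttTGAGCCTTGTCt
from 144 to 90, right: cccgaagtgcccTGAGCCTTGTCc

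Of the 2779 junctions, 2342 (84.3%) started in the second exon of 1 copy and ended in the second exon of the same or another copy. These had 30646 reads, 50.5% of the window's A=0 reads and 9.65% of all its reads. Different copies were joined by 2124 of them (90.7%), with 24435 reads. The pair Sprr2a1 and Sprr2a2 had the most, 894 junctions with 13351 reads. Sprr2a1 to Sprr2a3 had 380 junctions and 2743 reads, and Sprr2a2 to Sprr2a3 had 380 and 2744. Sprr2a1 to Sprr2b and Sprr2a2 to Sprr2b had 163 junctions each, with 2437 and 2441 reads. Sprr2a3 to Sprr2b had 74 junctions and 352 reads, and 28, 28 and 14 junctions reached Sprr2h from Sprr2a1, Sprr2a2 and Sprr2a3. The numbers from Sprr2a1 and from Sprr2a2 to any later copy were thus equal or nearly so. Their second exons first differ at offset 1364, so a read of the stretch before it fits either copy, and equal numbers do not show separate events. Within 1 copy there were 95 junctions in Sprr2a1 (2921 reads), 98 in Sprr2a2 (2995), 24 in Sprr2a3 (294) and 1 in Sprr2b.

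**Figure D2:**
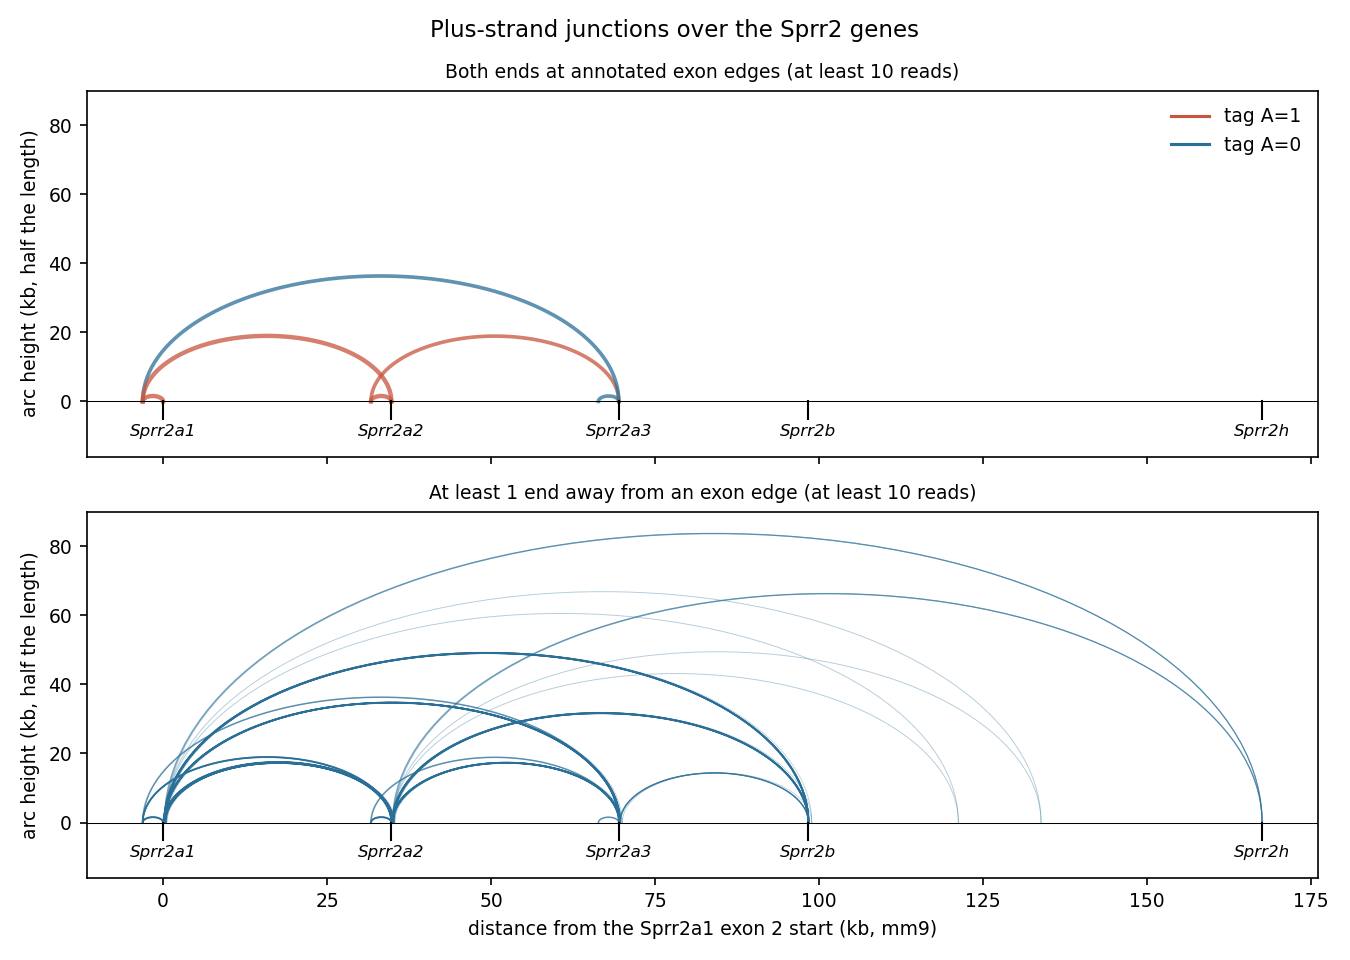
Plus-strand junctions with at least 10 reads that end within 180 kb of the Sprr2a1 exon 2 start (1, of Crnn, lies beyond) as arcs over the distance from the Sprr2a1 exon 2 start (horizontal axis, kb), tag A=1 in red and A=0 in blue, with lines thicker for more reads; ticks name the exon 2 starts of 5 genes. The upper panel has the 6 drawn junctions whose ends both lie at exon edges and the lower panel the others, which rise from one gene copy to the next in bundles.

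The lengths of the A=0 junctions lay near the distances between the copies. Sprr2a2 starts its exon 2 34813 bases after Sprr2a1, and Sprr2a3 starts its own 69496 bases after. The A=0 junctions had a median length of 34815 bases, with an interquartile range of 34584 to 69372, while those in the rest of the list had a median of 2788. Between 33 and 40 kb lay 1347 of them (48.6%, against 1.24% in the rest), and between 60 and 75 kb lay 597 (21.6%, against 1.98%). Long junctions of at least 10 kb numbered 2441 in the window, or 87.8%, and had 133868 reads, 42.2% of the window's reads. By tag, 88.1% of the window's A=0 junctions were that long, against 37.6% in the rest. Among short ones, 123 A=0 junctions of 50 to 100 bases held 9.84% of the A=0 reads. Of the window's junctions 2736 were on the plus strand, that of the Sprr2 genes, and 43 on the minus strand.

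**Figure D3:**
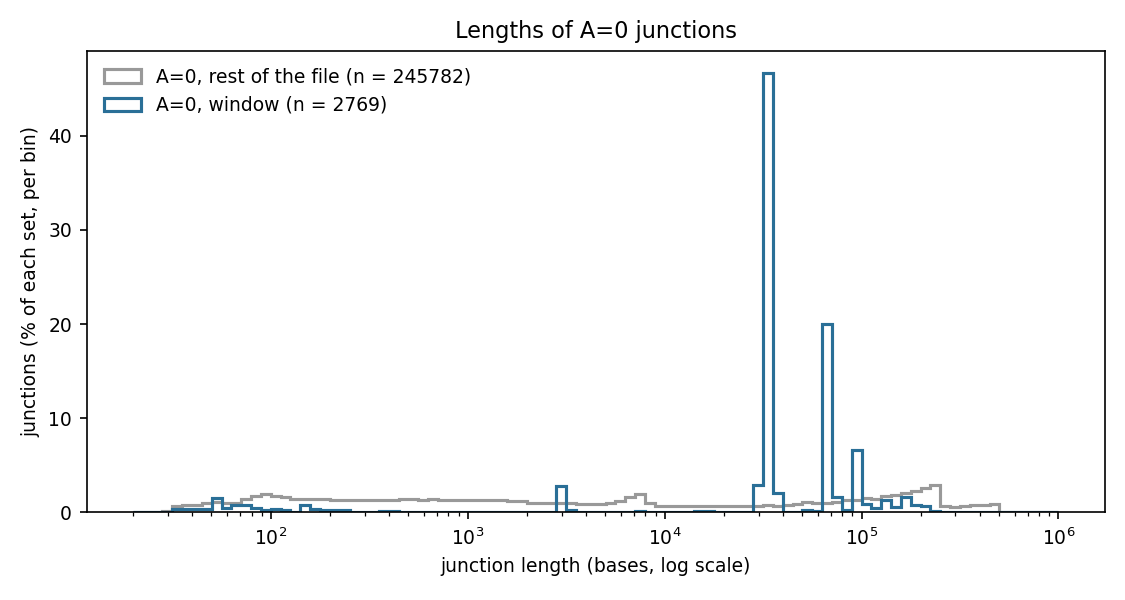
Share of A=0 junctions (vertical axis, percent per bin) by junction length (horizontal axis, bases, log scale) for the 2769 in the window and the 245782 in the rest of the list. The window has its highest peaks between 33 and 40 kb and between 60 and 75 kb, and the rest of the list is spread over the whole range.

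The longest junctions with at least 10 reads ran from the Sprr2a1 exon 2 to that of Sprr2h. One of 167474 bases, chr3:92023124-92190597, had 14 reads, 1 in R1 and 13 in R2. Another of 167420 bases, chr3:92023178-92190597, had 44 reads, 40 in R1 and 4 in R2. Its offsets are those of the family from 183 to 63 described below, whose most read place has other counts. Junctions of 167366 and 167235 bases, both ending at chr3:92190594, had 23 reads (15 in R1, 8 in R2) and 21 reads (13 and 8). One from Sprr2a1 of 133703 bases, chr3:92023185-92156887, had 17 reads, 16 in R1 and 1 in R2. From Sprr2a2, chr3:92057937-92190597 of 132661 bases had the counts of the first, 1 and 13.

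The same pair of offsets was listed again and again in different copies. The 2342 exon 2 junctions fell into 1023 families of equal offsets, 574 of which (56.1%) stood at several places and at most at 9. Those with at least 10 reads at their most read place numbered 160, covering 547 junctions, and 131 of them (81.9%) stood at several places. Adding the exon 1 to exon 2 junctions and the few that ran back from an exon 2 to a later exon 1, 2513 junctions (90.4%) had both ends placed in a copy, and they formed 1057 families. Their reads summed to 316508 over all places and to 95908 when each family was counted once at its most read place, a ratio of 3.30.

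Read numbers repeated along with the offsets. Among A=0 junctions with at least 10 reads, 251 of 411 (61.1%, exact binomial interval 56.2 to 65.8) shared an end with another junction that had the same R1 and the same R2. In the rest of the list that share was 7.26% of 15356, and in the densest megabase, on chromosome 5, it was 11.4% of 2275. Of the 6 A=1 junctions of the window with that many reads, 0 did. The repetition was not complete: of 144 families at several places with at least 10 reads, 16 had the same R1 and R2 at every place, and in 18 the lowest place was within 5% of the highest. Whether 1 read was listed at several places is not stated in the files.

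The most read family left out 70 bases, from 105 to 175. It stood at 6 places, within Sprr2a1, Sprr2a2 and Sprr2a3 and between them, with at most 1177 reads (479 in R1, 698 in R2), at chr3:92057913-92057982 in Sprr2a2. At chr3:92023100-92023169 in Sprr2a1, and again from there to Sprr2a2 over 34883 bases, it had 1130 reads (454 and 676). The family from 108 to 162 left out 54 bases, 2 repeat units, with 823 reads (336 and 487). With its right end in Sprr2a3, its ends were followed by 27 identical bases, the longest such run of any family at any place. Within Sprr2a1 and Sprr2a2, whose coding sequences are the same, the run was shorter. The family from 183 to 63 had 692 reads (516 and 176), and its right end lay 120 bases before its left end when both were set on 1 copy. The family from 144 to 90 ran back 54 bases with 296 reads (153 and 143), and its mirror from 90 to 144 ran forward 54 bases with 273 reads (120 and 153). R2 was above R1 in the families from 105 to 175 and from 108 to 162, and R1 above R2 in that from 183 to 63.

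Such backward families are drawn in the list from 1 copy to a later one, since a junction in genome order cannot run back within a copy. Of the 160 families with at least 10 reads, 84 (52.5%) ran backward in offset and 76 forward, with 5739 and 5950 reads at their most read places, and 0 of the 84 was listed within a copy. By size of the shift, 79 ran backward by more than 5 bases, 59 lay within 5 bases of no shift, such as that from 163 to 165 with 320 reads, and 22 ran forward by more than 5 bases. Of the 79 backward families, 48 (60.8%), with 78.2% of their reads, ended between offsets 55 and 75; this stretch was picked after the offsets were seen. The left ends of the 79 lay between offsets 100 and 609.

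**Figure D4:**
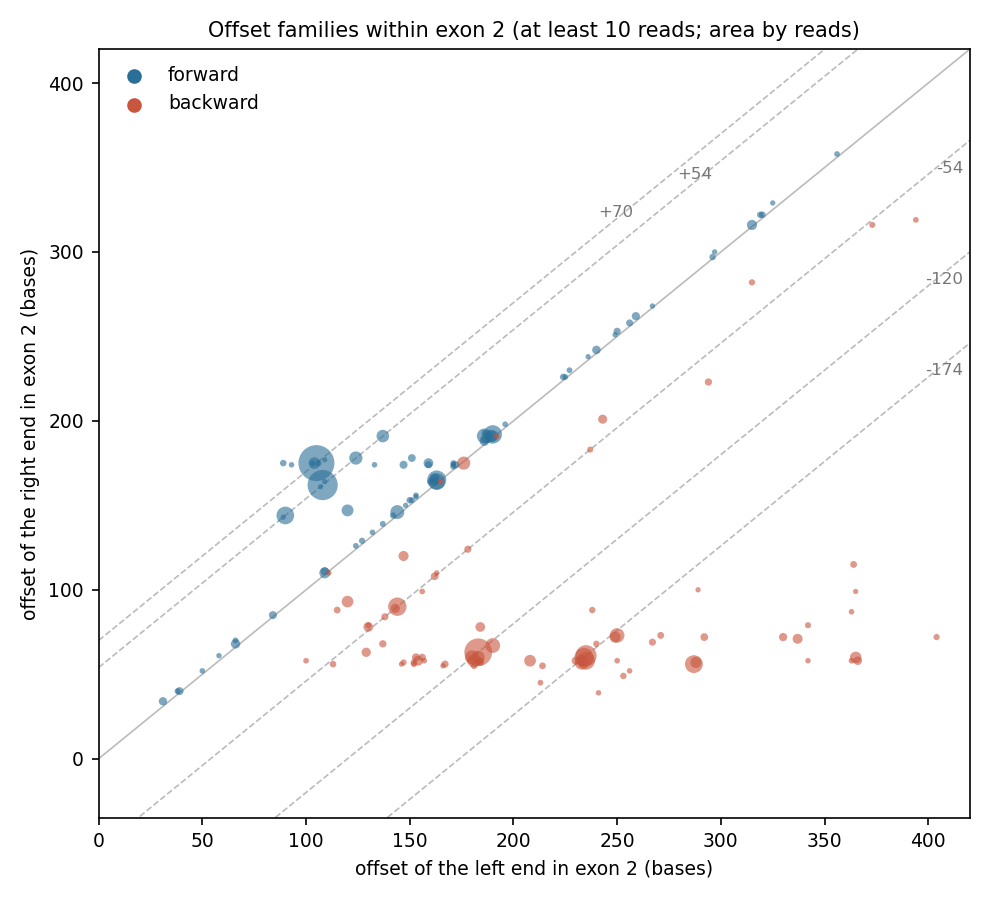
Offset in exon 2 of the left end (horizontal axis, bases) and of the right end (vertical axis, bases) of 156 of the 160 families with at least 10 reads, area proportional to the reads at the most read place plus a constant. Dashed lines mark the most read shifts, with their size in bases, and the solid line no shift; backward families gather in a band just above offset 55, and many forward ones lie close to the solid line.

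The shifts and the letters at the ends had features that the position rule did not use. A shift that is a multiple of 27 bases was found in 20 of the 160 families (12.5%) and in 3.51% of all pairs of offsets in the first 498 bases of the Sprr2a1 exon. A multiple of 3 was found in 83 (51.9%), against 33.2% of pairs. At least 6 identical bases at the ends were found in 35 families (21.9%), each scored at the place with the longest run. Pairs were each scored once, within Sprr2a1 alone, and 0.403% had as many, so these shares are unlike measures. The 498 bases also reach beyond the coding sequence that holds the repeats. These shares are descriptions; families overlap in sequence and are not independent, so no test was made. The intron letters GT and AG followed the tag C, whose meaning is also not stated: of the exon 2 junctions whose letters could be read, 128 of 128 with C=1 began with GT and ended with AG, and 0 of 2202 with C=0 did. C=1 was carried by 7.76% of the window's A=0 junctions and by 32.2% of A=0 junctions in the rest of the list.

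Some positions had many partners. The window's junctions had 902 different left ends and 887 different right ends, and 79 of these had at least 10 partners. The right end at chr3:92121409, at offset 58 of the Sprr2b exon 2, was joined with 42 left ends and 742 reads. Its neighbour at 92121408, offset 57, had 40 partners and 531 reads, and 92121411, offset 60, had 29 partners and 1113 reads. In Sprr2a3 the same offset 58, at 92092548, had 30 partners and 352 reads. The first exon of Sprr2a1, ending before 92019885, was joined with 36 right ends and 176743 reads. The Sprr2b and Sprr2a3 positions lie in the band of offsets where backward families ended.

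R1 and R2 were compared for every junction of the list with at least 10 reads by a two-sided exact binomial test, called at a Benjamini-Hochberg adjusted p of at most 0.05 and a log2 ratio of at least 1 either way. With 1 library on each side this compares those libraries and not conditions, and it knows counting error alone. The window had 230008 reads from R1 and 87570 from R2, or 12567 and 4595 per 1000000 junction reads, a ratio of 2.73. That ratio was 3.28 over A=1 junctions and 1.43 over A=0 junctions. Over the list 13635 of 120859 junctions were called, 11.3%, of which 5.3% were higher in R1 and 5.98% higher in R2. In the window 165 of 417 were called (39.6%), 148 higher in R1 and 17 higher in R2, with a median log2 ratio of 0.99, against 0.00 in the rest of the list. Among A=0 junctions alone the share was 161 of 411 (39.2%) in the window and 20.6% of 15356 elsewhere. With at least 50 reads 66 of 129 were called (51.2%), against 9.04% of the list. Counted once per family, 75 of 180 were called (41.7%), 70 of them higher in R1. Families were formed in the window alone, so no share of the list counted in that way stands beside this one. They come from a few gene copies and are not independent of each other. With a spread estimated between the libraries (edgeR's exact test, biological coefficient of variation 0.34), 1 of 417 was called, against 0.438% of the list; it joins Sprr2a1 to Sprr2a2, chr3:92023157-92057973, with 70 reads in R1 and 6 in R2 (edgeR adjusted p 0.0393), and is named after its values were seen. At an unadjusted edgeR p under 0.05 there were 101 (24.2%, 91 of them higher in R1), against 4.93% of the list. That spread was estimated from the same R1 and R2 values that the test compares. The places of a family are counted apart here.

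**Figure D5:**
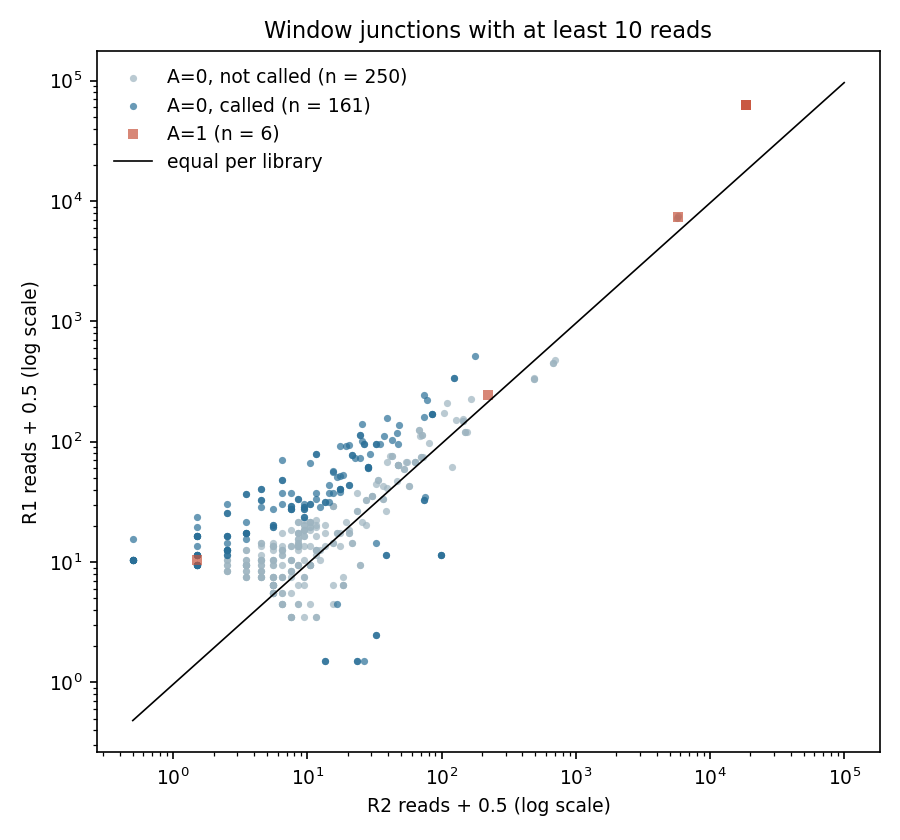
R1 reads (vertical axis) against R2 reads (horizontal axis), each plus 0.5 on log scales, for the 417 junctions with at least 10 reads, with A=0 in blue (dark where called by the exact binomial test) and A=1 in red; the line marks equal reads per scaled library. Most points lie above the line, and the 3 top points, drawn over each other, are the junctions into Sprr2a1 and Sprr2a2.

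The division between libraries also varied with the kind of exon 2 family. The 79 backward families had a median log2 ratio of 0.99 at their most read places, with 69 of 79 higher in R1, and the 59 families near no shift had 1.42, with 52 of 59 higher in R1. The 22 forward families had 0.07, with 13 higher in R1 and 9 higher in R2, and the 15 of them listed within a copy had -0.30. The difference between these classes was not tested. Among single called junctions, R2 led most at chr3:92023110-92057895, with 1 read in R1 and 26 in R2 (log2 ratio -4.09), which runs back 27 bases from Sprr2a1 to Sprr2a2. The next were chr3:92023110-92092578 and chr3:92057923-92092578, each with 1 and 23, which are the same family, from 115 to 88, between other copies. Then came chr3:92023124-92121414, with 2 and 32. Towards R1, the highest log2 ratio with 0.5 added was that of chr3:92023358-92057865, with 15 reads in R1 and 0 in R2, at least 5.19-fold higher when 3 counts stand for the 0. Another 8 junctions tied at 10 and 0, at least 3.46-fold higher by the same floor, some of them the same pair of offsets between different copies. Among the 8 were chr3:92023284-92057907 and, both from offset 236 to 238, chr3:92023231-92092728 and chr3:92058044-92092728. Their place depends on the count added to a 0: with zeros at that floor instead, junctions read in both libraries ranked above them, first chr3:92023145-92057960 with 23 reads in R1 and 1 in R2, named after its values were seen.

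The deposited contigs, stretches of continuous transcription with a signal level each, gave a separate readout of the same positions. The window held 32, 29 of them on the plus strand. Those at the second exons of Sprr2a3, Sprr2a1 and Sprr2a2 had signals of 218, 46.4 and 33.8, and that at Sprr2b 0.401, against a median of 0.228 over the contigs of the file. The order by signal thus differed from that by junction reads, where Sprr2a1 and Sprr2a2 stood above Sprr2a3. At the first exons the signal was 4.71 in Sprr2a3 and 0.183 in Sprr2a1. How contigs were built over near-identical copies is not stated, and its part in this order was not tested. Away from the Sprr2 copies, the highest signals were 32.7 at chr3:92231981-92233345 on the minus strand and 27.4 at chr3:92493220-92494190 on the plus strand. The contigs at the ends of the Sprr1a intron had 13.9 and 13.4. Either end of a junction lay within 5 bases of a same-strand contig for 91.4% of the ends of A=0 junctions in the window and 76.7% in the rest of the list. Among A=0 junctions with at least 10 reads these shares were 95.7% and 94.3%, so the gap lay among junctions with fewer reads. For A=1 they were 65.0% (13 of 20 ends, exact binomial interval 40.8 to 84.6) and 94.3%.

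The gene tables, made from transcriptome alignments to mm10, gave a further order. In TPM, a level scaled for gene length and library size, Sprr2a2 had 49831 in replicate 1 and 21542 in replicate 2. Sprr2a3 had 746 and 586 TPM (666 ± 113, SD, n = 2), and Sprr2a1 had 54.3 and 29.7 TPM (42.0 ± 17.4, SD, n = 2). The expected read counts behind them were 932638 and 405712 for Sprr2a2, 34877 and 16838 for Sprr2a3, and 5547 and 3005 for Sprr2a1. Sprr2a1 and Sprr2a2, whose introns had all but the same junction reads, thus stood far apart in these estimates; how reads were divided between near-identical copies is not stated, and its part in this gap was not tested. Sprr1a had 24.7 and 29.9 TPM (27.3 ± 3.66, SD, n = 2), the only gene of the 4 with a mean of at least 1 that was lower in replicate 1. Of 17 small proline-rich genes in the table, Sprr2h (0 and 0.20 TPM), Sprr2b (0.10 and 0.05) and Sprr3 (0 and 0.03) had a few reads. Sprr1b, Sprr2c-ps, Sprr2d, Sprr2e, Sprr2f, Sprr2g, Sprr2i, Sprr2j-ps, Sprr2k and Sprr4 were listed at 0 in both libraries. Thus Sprr2b, listed near 0 by the table, was joined by many of the exon 2 junctions (163 each from Sprr2a1 and Sprr2a2). Sprr2h, also listed near 0, was joined by fewer (28 from each).

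Other genes of the epidermal differentiation complex were at or near 0 in these libraries. Of 34 such genes, 0 reached a mean of 1 TPM and 26 were listed at 0 in both libraries; the highest were Lor, encoding loricrin (0.47 and 0.26 TPM), Crnn (0.35 and 0.27) and Lce3e, a late cornified envelope gene (0.14 and 0). Markers of stratified squamous epithelium summed to 9.16 and 4.95 TPM, with 2 of 11 at a mean of at least 1, and Krtdap and Dsg1a at 0. The colonocyte markers summed to 11773 and 12320 TPM and the goblet cell markers to 21858 and 24847, with 7 of 7 and 5 of 5 at a mean of at least 1. The squamous sum moved in the same direction between the replicates as the Sprr2a genes, and its part in their levels was not tested. Its largest member was Sbsn (6.32 and 3.12 TPM), while Krt10 (0.29 and 0.54) and Dsg3 (0 and 0.01) went the other way.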

How the data were processed

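Junction reads are counts that the authors deposited for 2 colon libraries on mm9, converted from a bigBed file per the files' notes; aligner and junction caller: not given in the sources used here. R1 and R2 were read from each junction's name and summed to its count in every row. Further columns deposited by the authors hold a score of unstated meaning and were not used. The authors' contig file gives a signal per contig on mm9, with no stated unit. Gene tables deposited by the authors give expected counts and TPM on mm10 with GENCODE M4 annotation; they were described and not tested. Coordinates are printed from 1, first to last intron base.

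Members and lists were chosen with earlier results of these data known. Named junctions are the 6 most read and the 6 longest with at least 10 reads of each tag, the 4 largest log2 ratios each way among called junctions, and the 5 ends with most partners. Libraries were scaled by TMM (edgeR 4.0.16, R 4.3.3; factors 1.00 and 0.998), 0.5 was added to counts for log2 ratios, and the exact binomial test (SciPy 1.17.1) was adjusted over all junctions with at least 10 reads after being tested on simulated data. Junction ends were placed in a copy when they lay within its exon 2, from 30 bases before it, or within 200 bases of its exon 1 end; 5 copies with a listed own intron were used. No mm9 sequence was used: letters come from the GENCODE vM21 transcripts. Alternatives are given in the closing section. The labels do not say whether the replicates are separate animals, so spread between them may be technical.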

Additional observations from a re-analysis of the deposited data

How the results depend on the processing

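Depth was limiting: with a minimum of 10 reads, 417 junctions remained in the window, 351 of them of 10 kb or more, the A=0 share of junctions was 98.6%, the A=0 read share 17.6%, the long-junction read share 41.3% and the median length 34814 bases. Among junctions read in both libraries the A=0 share was 99.0%. By library, the A=0 read share was 15.3% in R1 and 29.3% in R2, the long-junction read share 40.7% and 45.9%, and 1424 long junctions had a read in R2. The ratio of R1 to R2, each per library total, was 1.43 for A=0 and 3.28 for A=1. Counting each family once, chosen after seeing the data, the A=0 read share was 15.9%, this ratio 3.02, and 75 junctions were called different. A minimum of 50 reads gave 66 calls, and edgeR's exact test at the estimated dispersion gave 1, in place of 165; the estimate rests on 1 value per library. Of the 26 named junctions tested, 16 had been called and all 16 lost their call under edgeR. The other 10 were called by neither test, and 0 changed direction. Length limits of 5 and 20 kb, the window edge, the distance to contigs and unscaled totals moved no value beyond its interval or by over 1.5 times. No paired analysis was possible because there is 1 group.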
